A study of Homo sapiens with 6 samples.

Results

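The histone genes were the 67 protein-coding genes, of 31369 genes in the deposited count table, whose symbols follow the H1, H2A, H2B, H3 and H4 naming of the histone families. Of these, 56 were replication-dependent cluster genes, 10 were replacement variants, and 1, H2AL1RP on the X chromosome, was put in neither class and held 2 counts in all. The series measured RNA in HK-2 cells, an immortalised line of human proximal tubule epithelium, with and without overexpression of PPM1K. PPM1K is a mitochondrial phosphatase that acts on the branched-chain keto acid dehydrogenase complex. The control group (NC) had 3 samples and the overexpression group (OE) had 3 samples, all labelled Day 10. The genotype label was WT for NC and PPM1K overexpress for OE, while the sample titles read shControl and shPPM1K, which are names used for knockdown constructs. All 6 samples carried the treatment entry Chronic kidney disease, and all were grown in DMEM with fetal bovine serum. The OE cells were transfected with a PPM1K plasmid using Lipofectamine after a period without serum, and whether the NC cells received an empty plasmid was not given in the sources used here. Nothing in the labels said that the samples of a group came from separate cultures, so the p-values measure the spread between these samples, which may be technical.

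Histones are the proteins around which DNA is wrapped: H2A, H2B, H3 and H4 form the core of the nucleosome, and the linker histone H1 binds the DNA between nucleosomes. Replication-dependent histone genes lie in clusters, are transcribed mainly in S phase, and give mRNAs that end in a conserved stem-loop, bound by the stem-loop binding protein SLBP, in place of a poly(A) tail. Most replacement variants are made throughout the cell cycle from polyadenylated mRNAs, and their proteins can enter chromatin outside replication.

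The stem-loop is shown first because it separates the 2 classes by sequence and because libraries for mRNA usually capture poly(A) tails. The letters GGNNCTT, followed directly by NTN and then by AGNNCC, were searched on the coding strand within 100 bases after the stop codon of each gene's canonical transcript (GENCODE release 44, GRCh38). The match was present in all 55 cluster genes with an entry in that release, in 1 of 10 replacement variants, and in 0.361% of 19919 protein-coding genes, the histone genes included. It began between 22 and 62 bases after the stop codon of the cluster genes, with a median of 35. The most frequent form was shared by 30 cluster genes of the H1, H2A, H2B and H3 families. Among the cluster genes, forms with CCC and GGG in the stem were found only in the H4 family, in all 12 of its genes. The most frequent of these forms was shared by 8 genes, and others were found in 3 genes and in 1 gene. The following stretches hold the 16 matched bases in capitals, with 5 bases of the gene on each side, for the 4 cluster genes that changed in OE, for 1 H4 gene and for H2AX, the replacement gene with a match.
H1-2: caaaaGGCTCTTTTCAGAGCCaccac
H2BC12: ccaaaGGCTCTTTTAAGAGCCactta
H2AW: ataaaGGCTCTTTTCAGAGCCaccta
H2BC9: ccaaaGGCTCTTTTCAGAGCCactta
H4C3: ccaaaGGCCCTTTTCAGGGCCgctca
H2AX: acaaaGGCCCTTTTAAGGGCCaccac
The 16 bases lie at chr6:26055744-26055759 on the minus strand for H1-2, at chr6:27146366-27146381 on the minus strand for H2BC12 and at chr1:228457369-228457384 on the minus strand for H2AW. They lie at chr6:26252055-26252070 on the plus strand for H2BC9, at chr6:26104317-26104332 on the plus strand for H4C3 and at chr11:119094898-119094913 on the minus strand for H2AX.

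The total count per sample was between 34635770 and 39850802. PPM1K had 37, 19 and 53 counts in NC and 3294, 3531 and 2919 in OE, so its level followed the genotype label and not the titles. Of 18 renal epithelial markers, 8 had a mean of at least 1 FPKM (fragments scaled to transcript length and library total), among them KRT8, KRT18 and PAX8, while the proximal tubule receptor LRP2 had 1 count in all 6 samples together. Of 12 markers of other cell types, 1, COL1A1, reached 1 FPKM, and only in NC. NC replicate 2 stood apart in RNAs that lack a poly(A) tail: 7SK had 3264 counts there and between 242 and 527 in the other 5 samples. It also stood apart more widely, with a count in 26478 genes, against 22094 to 22913 in the other 5 samples. The paper lists larger shares of intergenic, intron and antisense reads for it than for any other sample. The counts and changes that moved with that sample are given below also without it.

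Of the 67 histone genes, 19 had enough counts for a test: 8 of the 10 replacement variants and 11 of the 56 cluster genes. In edgeR with Benjamini-Hochberg adjustment over all genes tested, 4 replacement variants rose in OE, 2 fell and 2 did not pass an adjusted p of 0.05. Of the 11 tested cluster genes, 0 rose, 4 fell and 7 did not pass. Over all 15878 genes tested, 24.9% passed as higher and 23.7% as lower. Past a 2-fold change, 0 of the tested cluster genes rose and 1, H2BC9, fell, where 1.73% of all genes rose and 3.79% fell by that much. The median log2 fold change was 0.13 over the 8 replacement variants, -0.46 over the 11 cluster genes and -0.0032 over all genes tested. Without NC replicate 2 these medians were 0.12, -0.34 and 0.00049. The CPM of all OE samples, the counts scaled to library size with TMM factors, lay above that of all NC samples for 5 of the replacement variants and 0 of the tested cluster genes, against 28.2% of all genes. It lay below for 2 replacement variants and 4 cluster genes, against 27.1% of all genes.

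**Figure D1:**
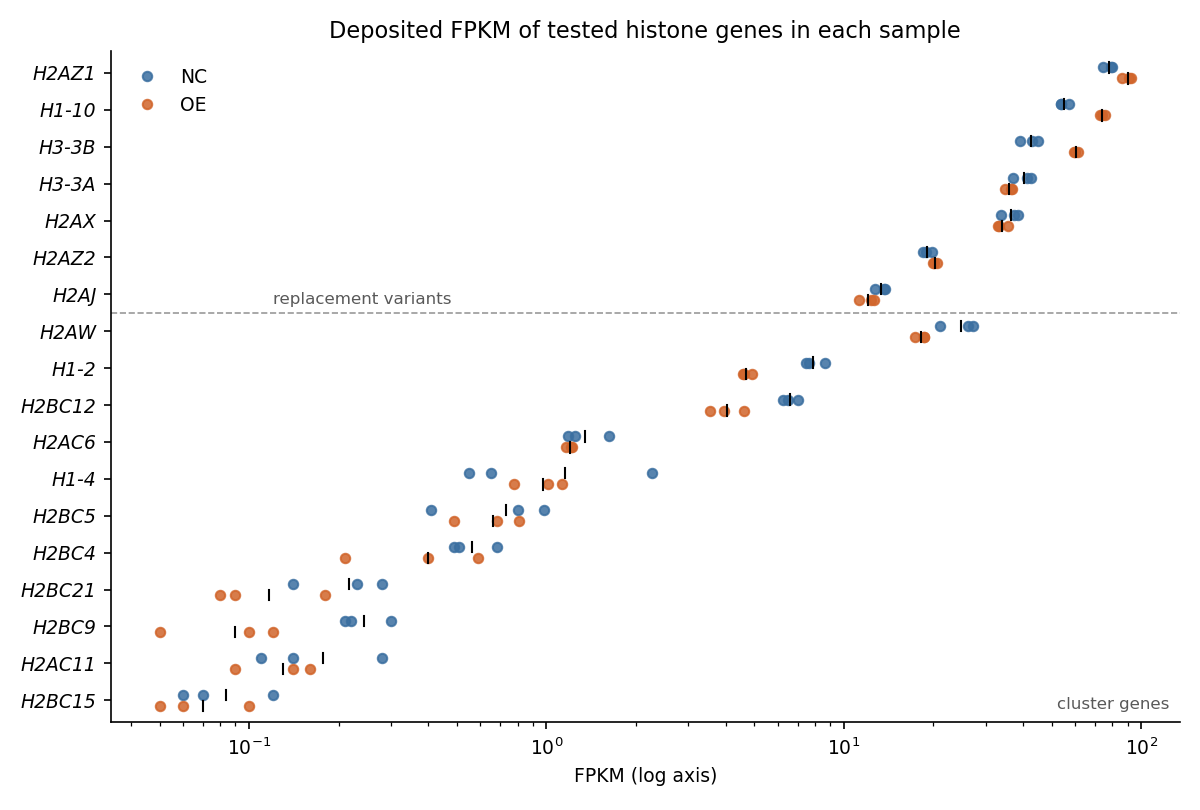
Deposited FPKM on a log axis for tested histone genes, 1 point per sample, with NC and OE in different colours. The replacement variants shown lie between 11.2 and 92.5 FPKM, 5 of the 11 tested cluster genes have a mean of at least 1 FPKM, and the points of H3-3B and H1-10 separate by group.

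The classes differed in level before any change. Replacement variants took 36693, 34372 and 37192 counts in NC and 46948, 50417 and 44370 in OE. The 56 cluster genes took 1505, 1664 and 1560 counts in NC and 1155, 1203 and 1136 in OE. Cluster genes therefore made up 3.94%, 4.62% and 4.03% of histone counts in NC and 2.40%, 2.33% and 2.50% in OE, with no overlap between the groups. A single cluster gene, H2AW, held between 43.8% and 60.3% of the cluster counts of a sample. The summed FPKM of the replacement variants was 298 ± 14.96 in NC and 377 ± 6.70 in OE, and that of the cluster genes was 49.1 ± 2.86 in NC and 33.8 ± 0.599 in OE (mean ± SD, n = 3). These sums are descriptions, since an exact permutation test of 3 against 3 samples cannot give a two-sided p below 0.10. In bulk RNA, fewer cells in S phase, less histone mRNA per cell and a smaller captured share of it cannot be told apart. The libraries were for mRNA, and such libraries usually capture poly(A) tails.

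H1-10, a replacement linker histone, had 3248, 3146 and 3170 counts in NC and 4489, 4821 and 4223 in OE. The groups did not overlap. The rise was 0.41 ± 0.05 on the log2 scale (estimate ± SE), or 1.33-fold, with an edgeR adjusted p of 8.2e-07. H1-10 (chr3:129314771-129316286, minus strand) overlaps the antisense gene H1-10-AS1, and whether the counting used strand was not given in the sources used here.

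H1-2, a cluster gene for a somatic linker histone, moved the other way. It had 203, 244 and 217 counts in NC and 134, 152 and 129 in OE. All 3 OE samples were lower than all 3 NC samples. The gene (chr6:26055740-26056470, minus strand) fell by 0.77 on the log2 scale with an SE of 0.13, to 0.587 of its NC level, with an edgeR adjusted p of 3.7e-05, and without NC replicate 2 the log2 fold change was -0.69. H1-4, the other tested cluster linker histone, had 19, 69 and 17 counts in NC and 32, 26 and 34 in OE. The groups overlapped, because NC replicate 2 was the highest of the 6 samples and the other NC samples were the lowest. Its log2 fold change was -0.28 ± 0.41 with all samples and 0.68 without NC replicate 2, and neither passed.

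The replacement histone H3.3 is made from a pair of genes that give the same protein, and they moved apart. H3-3B had 10326, 9326 and 10268 counts in NC and 14716, 15932 and 14001 in OE, with no overlap. It rose by 0.49 ± 0.05 on the log2 scale, or 1.40-fold, with an edgeR adjusted p of 1.3e-07. H3-3A had 6084, 5510 and 6141 counts in NC and 5593, 5941 and 5107 in OE. The raw counts overlapped, but the CPM values, which take account of the library totals, did not. H3-3A fell by 0.18 on the log2 scale with an SE of 0.05 and an edgeR adjusted p of 0.0075, and without NC replicate 1 its edgeR adjusted p was 0.065. H3-3B supplied 51.4%, 51.4% and 51.0% of the summed H3.3 FPKM in NC and 62.1%, 62.6% and 63.1% in OE, and the sum itself was 87.7, 76.4 and 84.2 FPKM in NC and 96.2, 98.2 and 94.3 FPKM in OE. H3-3B (chr17:75776434-75785893, minus strand) overlaps UNK on the other strand and MIR4738 on its own, and H3-3A (chr1:226061851-226072019, plus strand) overlaps H3-3A-DT. H3-3A shares 6.54% of its 150-base windows with other histone genes or pseudogenes, so a small part of its reads may not have mapped to 1 place.

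The H2A.Z variants, which mark promoters of active and poised genes, had the highest FPKM among the histone genes through H2AZ1. H2AZ1 had 6757, 6553 and 6976 counts in NC and 8318, 8872 and 7518 in OE. The groups did not overlap, and the rise was 0.19 ± 0.05 on the log2 scale, or 1.14-fold, with an edgeR adjusted p of 0.0033. H2AZ1 (chr4:99948086-99950355, minus strand) overlaps H2AZ1-DT. H2AZ2 (chr7:44826791-44848087) had 4948, 5009 and 5390 counts in NC and 5597, 5966 and 5545 in OE, and its log2 fold change of 0.07 ± 0.05 did not pass, with an edgeR adjusted p of 0.26.

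H2AX, the variant that is phosphorylated at DNA breaks, had 2326, 2111 and 2350 counts in NC and 2156, 2440 and 2049 in OE. The groups overlapped, and the log2 fold change of -0.12 ± 0.06 did not pass, with an edgeR adjusted p of 0.087. Without NC replicate 2 it was -0.17 with an edgeR adjusted p of 0.040. H2AJ, a variant known for its accumulation in senescent cells, had 1708, 1653 and 1793 counts in NC and 1659, 1785 and 1444 in OE. Its CPM values did not overlap between the groups. It fell by 0.17 on the log2 scale with an SE of 0.06 and an edgeR adjusted p of 0.031, but the call was lost in 9 of 14 alternative settings, with adjusted p values up to 0.13. H2AX (chr11:119093874-119095465, minus strand) and H2AJ (chr12:14774405-14778002) overlap no other annotated gene. The remaining replacement genes, H2BE1 and H3-5, had at most 6 counts in any sample and were not tested.

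**Figure D2:**
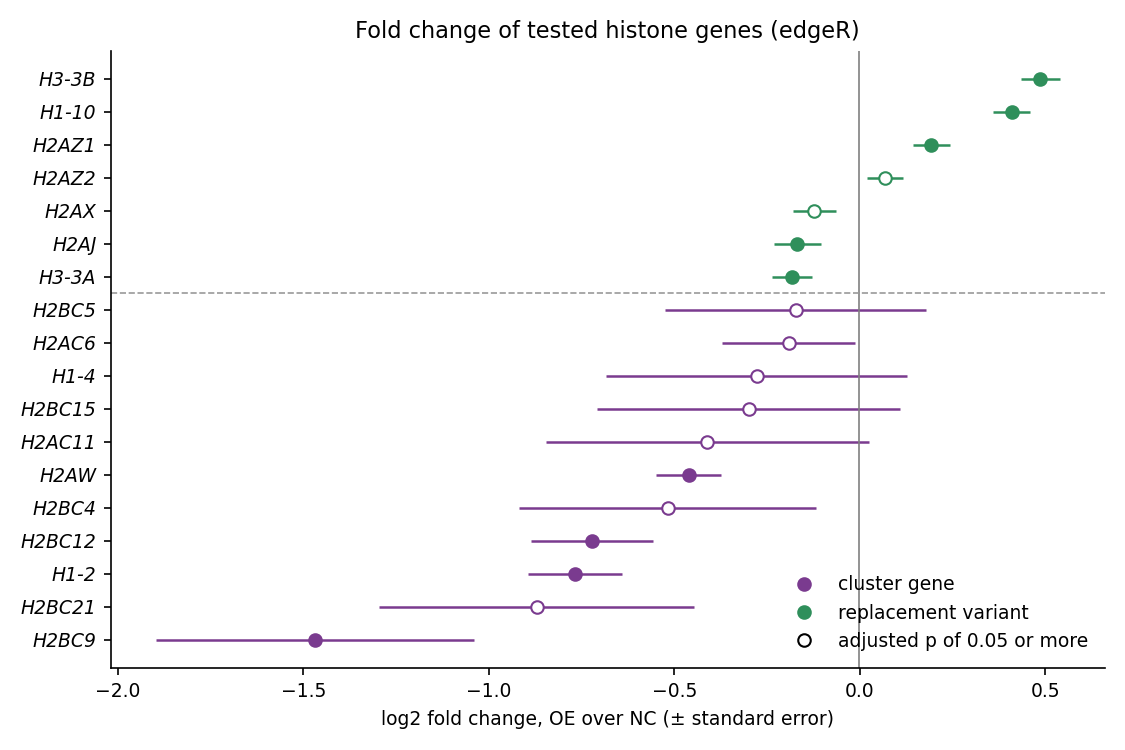
Log2 fold change of OE over NC from edgeR for tested histone genes, with bars of 1 SE on each side, coloured by class and filled where the adjusted p was under 0.05. The replacement variants shown lie between -0.18 and 0.49, and the cluster genes all lie below 0, with wide bars where counts were low.

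Of the 4 cluster genes that fell, H2AW had the most counts. H2AW (chr1:228434777-228457873, minus strand), an H2A gene of the smaller histone cluster on chromosome 1, had 907, 729 and 909 counts in NC and 669, 656 and 641 in OE. The groups did not overlap, and NC replicate 2 was the lowest NC sample. The gene fell by 0.46 on the log2 scale with an SE of 0.09, to 0.726 of its NC level, with an edgeR adjusted p of 0.00016, and without NC replicate 2 the log2 fold change was -0.56. H2AW overlaps the pseudogene RPL23AP15.

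H2BC12 (chr6:27146361-27146855, minus strand), an H2B gene of the main cluster on chromosome 6, had 120, 134 and 120 counts in NC and 92, 74 and 75 in OE. No OE sample reached the lowest NC sample. It fell by 0.72 on the log2 scale with an SE of 0.16, to 0.606 of its NC level, with an edgeR adjusted p of 0.0010, and without NC replicate 2 the log2 fold change was -0.66. H2BC9 (chr6:26251614-26252075, plus strand) had 17, 17 and 24 counts in NC and 10, 4 and 8 in OE. All OE samples were lower than all NC samples, at counts where single reads weigh. It fell by 1.47 on the log2 scale with an SE of 0.43, to 0.362 of its NC level, with an edgeR adjusted p of 0.0075. Without OE replicate 2 the log2 fold change was -1.14 and the edgeR adjusted p was 0.055, so the call ended, and without NC replicate 2 it was -1.55 with an adjusted p of 0.015. H2BC9 overlaps 2 annotated genes without symbols.

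The other 7 tested cluster genes had log2 fold changes between -0.87 and -0.17, all below 0 and none past the threshold. H2BC21 was nearest to it, with 19, 24 and 12 counts in NC and 8, 17 and 7 in OE. Its groups overlapped through OE replicate 2, and the log2 fold change of -0.87 ± 0.42 had an edgeR adjusted p of 0.096. Without OE replicate 2 it was -1.33 with an edgeR adjusted p of 0.041. H2AC6, with a mean of 83.3 counts, had 78, 76 and 105 counts in NC and 81, 82 and 78 in OE, and its log2 fold change was -0.19 ± 0.18. The signs of H1-4, H2AC11, H2BC15 and H2BC5 turned to higher in OE without NC replicate 2, at log2 fold changes of 0.68, 0.10, 0.090 and 0.11, none of which passed. H2BC4, with a log2 fold change of -0.52 ± 0.40, stayed below 0 in all settings tried.

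The 45 cluster genes that were not tested included all 10 of the H3 family and all 12 of the H4 family. Their mean count over the 6 samples was between 0.167 and 11, with a median of 1.83, and 33 of the 45 stayed below 10 counts in every sample. In 22 of the 45 the highest CPM was in NC replicate 2, and in the others it was in 1 of the remaining 5 samples. Summed over the 45 genes the CPM was 2.24, 7.55 and 2.78 in NC and 2.22, 2.88 and 2.70 in OE, so that NC replicate 2 was the highest and the other 5 samples lay close together. H1-5 had the largest single value, with 6, 40 and 5 counts in NC and 2, 5 and 8 in OE. The summed CPM of the 11 tested cluster genes did not follow NC replicate 2, at 41.0, 39.7 and 40.6 in NC and 29.04, 27.5 and 28.6 in OE.

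RNAs of other families that carry no poly(A) tail moved in the same sample. Of 32 listed, 22 were in the table, and their summed CPM was 14.8, 135 and 26.8 in NC and 17.8, 15.1 and 15.05 in OE. Of these, 6 were tested, and 0 rose and 3 fell, each by over 2-fold, where 3.79% of all genes fell by that much, with a median log2 fold change of -0.67. Without NC replicate 2, 1 of the 6, 7SK, fell, by 0.71 on the log2 scale, and the median was 0.076. With all samples but without 7SK, the median of the remaining 5 was 0.062, and 2 of them, RN7SL1 and RPPH1, fell. Without 7SK, the RNA that holds the elongation factor P-TEFb inactive, the summed CPM was 7.495, 42.4 and 12.2 in NC and 10.7, 8.69 and 8.39 in OE. RN7SL1, the RNA of the signal recognition particle, had 159, 1122 and 309 counts in NC and 235, 199 and 207 in OE, with overlapping groups. RPPH1, the RNA of ribonuclease P, had 24, 142 and 30 counts in NC and 23, 19 and 5 in OE. The part in the histone results of this sample's RNA without poly(A) tails, or of its reads outside exons, was not tested beyond leaving the sample out. The falls of H1-2, H2BC12, H2AW and H2BC9 passed the edgeR test without that sample.

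**Figure D3:**
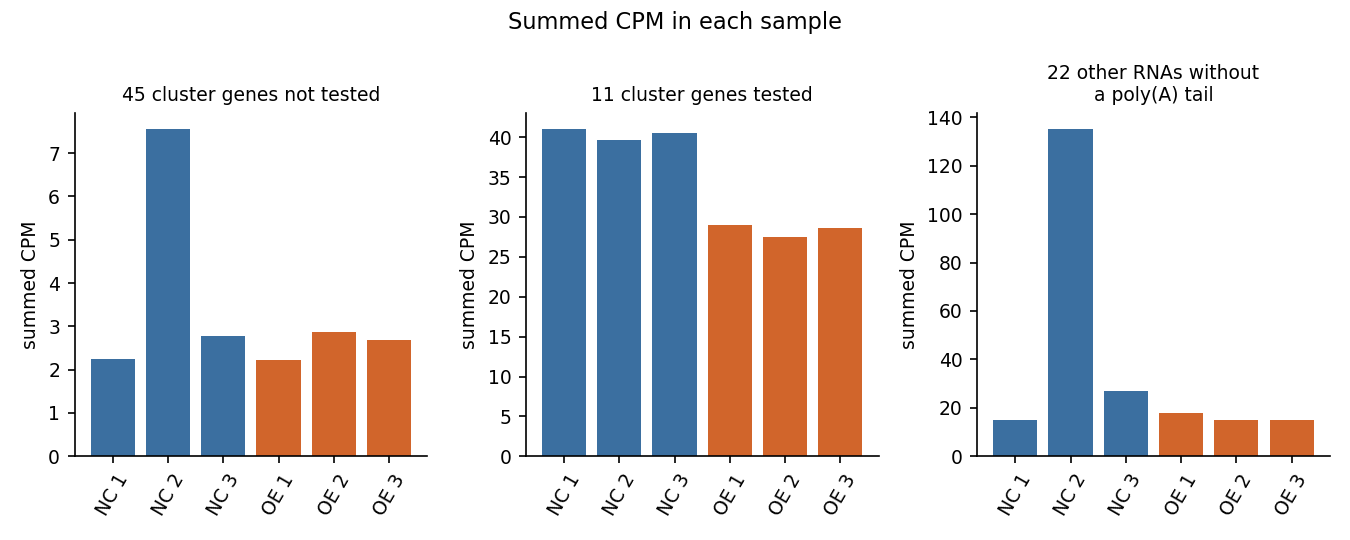
Summed CPM in each sample, as bars from 0, for groups of genes in separate panels. NC replicate 2 stands out at 7.55 in the panel of untested cluster genes and in that of other RNAs without a poly(A) tail, but not in the panel of tested cluster genes, where the 3 NC bars lie between 39.7 and 41.0 and the 3 OE bars between 27.5 and 29.04.

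Most cluster genes end in the annotation a few bases after the stem-loop, but some have longer annotated transcripts that run past it, as is known for histone genes that also give polyadenylated mRNAs. Among the 11 tested cluster genes, 6 had annotated sequence more than 100 bases past the stem-loop, and the median was 1729 bases. Among 44 untested ones with an entry, 10 did, and the median was 5 bases. H2AW, with the highest count of the cluster genes, had 22592 annotated bases past its stem-loop, introns included. H1-2, H2BC12 and H2BC9, which also fell, end 4 or 5 bases past theirs. The 4 genes that fell thus include both kinds of annotated end, which does not show whether a gene also gives polyadenylated mRNA. A list of cluster genes known to give polyadenylated mRNA as well held 5 tested genes. Of these, 2 fell, H1-2 and H2BC12, against 23.7% of all genes, and 3 did not pass. The median log2 fold change was -0.72.

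**Figure D4:**
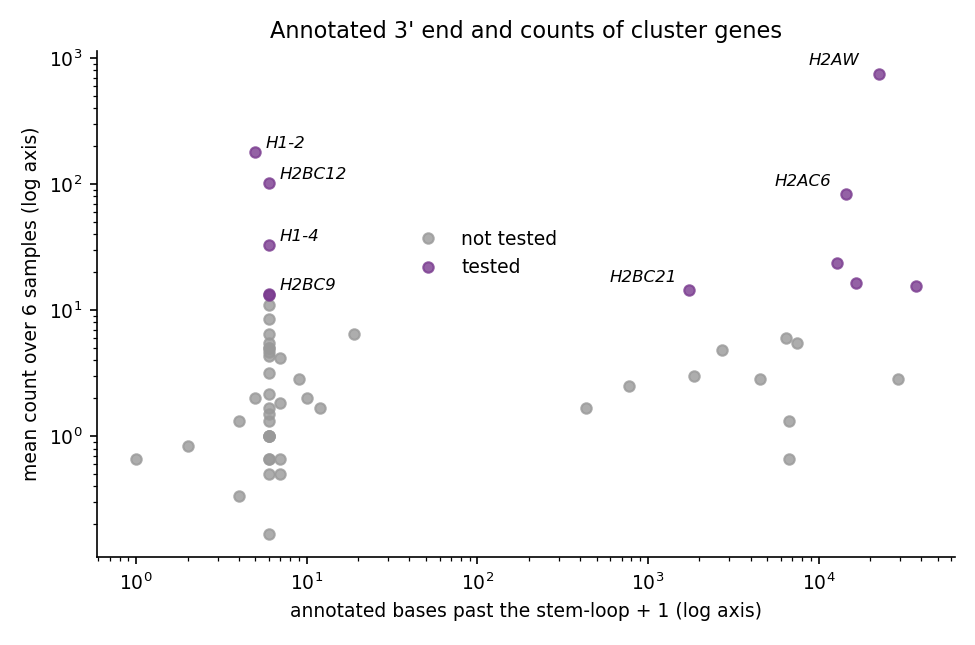
Mean count over the 6 samples against the annotated bases past the stem-loop, both on log axes, for 55 cluster genes, with tested and untested genes in different colours. Genes that end within about 5 bases of the stem-loop span the range from under 1 count to H1-2 at 180 counts, and H2AW lies at the upper right with 752 counts.

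Promoters were compared because cluster genes of 1 family share regulatory elements upstream of their start. RefSeq promoters on GRCh38.p14, 250 bases before to 50 bases after the start, were matched by symbol for 52 cluster genes and 7 replacement variants, and both strands were searched. The H1 box AAACACA was in 5 of 5 cluster H1 promoters and in 0 of the 7 replacement promoters, against 5.64% of 35116 promoters. It was in 1 other cluster promoter, that of H2AC20, where it lay after the start and on the other strand. The octamer ATTTGCAT, bound by the POU factor OCT1, was in 12 of 16 cluster H2B promoters, 8 of 12 cluster H2A promoters, none of the H1, H3 and H4 cluster promoters and 1 of 7 replacement promoters, that of H3-3B, against 1.77% of all. CCAAT was in 44 of 52 cluster and 6 of 7 replacement promoters, against 34.6% of all, and TATAAA was in 32 of 52 and 4 of 7, against 11.5%. These are matches of letters, which may overlap one another, and not measured sites. The same octamer match was counted for both genes in H2AC6/H2BC4, H2AC8/H2BC8, H2AC11/H2BC11 and H2AC20/H2BC21. Among the tested H2A and H2B cluster genes, H2AW, H2BC5 and H2BC15 had no octamer match, and of these H2AW fell. H2AC6, H2AC11 and H2BC4 had a match, and none of them passed. A link between the octamer and the changes was not tested. Windows of 30 bases with the match in capitals are given for H1-2 and H1-4, the tested cluster H1 genes, and for the 3 tested H2B genes with the lowest log2 fold changes.
H1-2 H1 box: tgaggtggaacAAACACAacttgggagcag
H1-4 H1 box: tgaggtgtaacAAACACAactcgggatccg
H2BC12 octamer: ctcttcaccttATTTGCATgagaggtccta
H2BC9 octamer: attaagcacctATTTGCATaaaagacctac
H2BC21 octamer: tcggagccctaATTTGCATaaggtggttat
These windows lie at chr6:26056571-26056600 on the minus strand for H1-2 and chr6:26156201-26156230 on the plus strand for H1-4. The octamer windows lie at chr6:27146886-27146915 on the minus strand for H2BC12, chr6:26251554-26251583 on the plus strand for H2BC9 and chr1:149886710-149886739 on the minus strand for H2BC21. The H1 box began 119 bases before the start in H1-2 and 117 in H1-4, and the octamer began 46, 49 and 46 bases before it in H2BC12, H2BC9 and H2BC21.

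The genes that process histone mRNA and drive its transcription were given by a list of 18, all tested. Of these, 8 rose, 2 fell and 8 did not pass, against 24.9% of all genes higher and 23.7% lower, with a median log2 fold change of 0.15 and none past 2-fold. SLBP had 7963, 8378 and 8810 counts in NC and 10869, 11820 and 10723 in OE, with no overlap, and rose by 0.32 ± 0.05 on the log2 scale with an edgeR adjusted p of 1.3e-05. ERI1, the exonuclease that trims the stem-loop end, rose by 0.48, and CPSF2 and SNRPB, of the cleavage complex and the core snRNP, rose by 0.46 and 0.40. SRRT, which links the cap-binding complex to 3′ processing, fell by 0.43. NPAT, the coactivator of cluster histone transcription, had 331, 334 and 332 counts in NC and 312, 360 and 377 in OE, with a log2 fold change of -0.02 ± 0.10 and an edgeR adjusted p of 0.91. LSM11, of the U7 snRNP that cuts histone pre-mRNA, did not pass at -0.22 ± 0.16.

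Of 28 histone chaperones and deposition factors, 13 rose, 2 fell and 13 did not pass, against 24.9% of all genes higher and 23.7% lower, with a median log2 fold change of 0.15. SET rose by 0.50, VPS72, which carries H2A.Z to the remodelling complex, by 0.47, and NPM1 by 0.43. The 2 that fell were the histone-binding proteins RBBP4, by 0.43, and RBBP7, by 0.39. NASP, which keeps a pool of free H3 and H4, had a log2 fold change of 0.02 ± 0.05 that did not pass.

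Of 38 genes of S phase and replication, all tested, 13 rose, 10 fell and 15 did not pass, against 24.9% of all genes higher and 23.7% lower. Their median log2 fold change was 0.04. DTL, which recruits substrates to a ubiquitin ligase at replication forks, rose by 0.66. The ribonucleotide reductase subunit RRM1 fell by 0.48, the ligase LIG1 by 0.44 and the polymerase subunit POLD1 by 0.41. Of 17 tested genes of G2 and mitosis, 3 rose, 9 fell and 5 did not pass, against the same shares of all genes, with a median of -0.15. Without NC replicate 2, 3 rose and 7 fell. KIF20A fell by 0.74, AURKA by 0.41 and CCNB1 by 0.34, while AURKB rose by 0.53 and TPX2 by 0.29. No gene of either list passed 2-fold. The part of the cell cycle in the histone results was not tested.

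Histone variants named by other symbols changed little. MACROH2A2 had 1888, 1793 and 1924 counts in NC and 2215, 2360 and 2265 in OE and rose by 0.20 ± 0.05 on the log2 scale with an edgeR adjusted p of 0.0048. MACROH2A1, more abundant, had a log2 fold change of 0.10 ± 0.05 and an edgeR adjusted p of 0.10. CENPA, the H3 variant of centromeres, had a log2 fold change of 0.07 ± 0.08 and an edgeR adjusted p of 0.46. H3Y1 had too few counts for a test.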

How the data were processed

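RNA from 6 HK-2 samples was made into stranded mRNA libraries and sequenced as read pairs. The authors discarded reads with more than 2 N bases, trimmed with FASTX-Toolkit, dropped reads under 16 nt, aligned to GRCh38 with HISAT2 allowing 4 mismatches, and counted uniquely mapped reads. The submitters' processing notes also list mm10. The counting program, annotation release and strand setting were not given in the sources used here. The deposited values were raw counts and FPKM per gene, which the authors computed. Unique mapping removes reads shared by near-identical genes: 7 of 55 cluster genes, none of them tested, share over 10% of their 150-base windows with another histone gene or pseudogene.

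Counts were tested with edgeR 4.0.16 (quasi-likelihood F-test, filterByExpr, TMM scaling, R 4.3.3), with Benjamini-Hochberg adjustment over 15878 genes. The pipeline was tested on simulated data. Errors of log2 fold changes are SE, and n = 3 per group. Each SE was derived from the test, as the size of the log2 fold change divided by the square root of F. Alternatives were DESeq2 1.42.0, limma 3.58.1 on log2(FPKM + 1) or log2(FPKM + 0.1), other scaling, no filter, a replicate block, leaving out each sample, and, chosen after seeing the data, no filter without NC replicate 2. The histone genes, their classes and the gene lists were chosen with earlier results of these data known. Some genes and their values are not reported here. Otherwise, named were the tested replacement variants, the cluster genes with the 10 highest FPKM, the 10 smallest adjusted p or over 2-fold calls, and the 5 smallest adjusted p of each list, with NPAT, LSM11 and NASP added after their values were seen. Coordinates are from GENCODE release 44 on GRCh38.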

Additional observations from a re-analysis of the deposited data

How the results depend on the processing

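Over 14 alternative settings, of which no filter together with leaving out NC replicate 2 was chosen after seeing the data, H1-10, H3-3B and H2AZ1 stayed higher in OE and past an adjusted p of 0.05, with log2 fold changes of 0.37 to 0.44, 0.44 to 0.53 and 0.16 to 0.23. H1-2, H2BC12 and H2AW stayed lower and past it, at -0.81 to -0.64, -0.84 to -0.59 and -0.56 to -0.39. The count of replacement variants that fell was 2, and 1 with DESeq2, with no filter, with a replicate block and with limma on either FPKM scale, 3 with upper-quartile scaling, and between 0 and 3 with 1 sample left out, 0 without NC replicate 1 and 3 without NC replicate 2. The count of histone genes lower by over 2-fold was 1, and 3 with no filter, where H1-5 and H3C12, whose highest counts were in NC replicate 2 and whose groups overlap, joined H2BC9. It was 1 with no filter and without that sample, where H1-5 was -0.21 and H3C12 -0.66 on the log2 scale and neither passed, and 0 with limma on either FPKM scale, where the pseudocount shrinks low genes. H1-4 turned to 0.021 with limma on log2(FPKM + 0.1). Leaving out 1 sample gave log2 fold changes from -0.61 to 0.68 for H1-4, from -0.66 to 0.10 for H2AC11, from -0.73 to 0.090 for H2BC15 and from -0.46 to 0.11 for H2BC5, above 0 without NC replicate 2. With no filter and without NC replicate 2 they were 0.69, 0.11, 0.091 and 0.12, and 1 replacement variant fell. Apart from the shrinking by the pseudocount, the cause was not tested. Same-numbered samples did not deviate together (r = -0.0032, -0.066 and -0.054). These values show no pairing by number, but with 3 samples per group they cannot exclude a shared culture or preparation. The replicate block ended the H2AJ call, with an edgeR adjusted p of 0.063. H2AX passed with upper-quartile scaling, at an adjusted p of 0.028, and without NC replicate 2. Counts near 0 limit what can be said of the H3 and H4 cluster genes.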
